A study of Mus musculus with 6 samples.

Results

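The imprinted growth regulators described here are 10 genes, each of which is expressed mainly from the copy inherited from one parent: H19, Phlda2, Dlk1, Meg3, Rian, Peg3, Ndn, Peg10, Mest and Plagl1. Their members are all probe sets, the short groups of oligonucleotides that read one transcript on the array, whose annotated symbol is exactly one of these 10. The rule found 36 of the 45101 probe sets on the array, for 9 of the 10 genes and of 18194 genes named by a single symbol. Meg3 had 11 of them, Ndn 8, Peg3 5, Rian 4, Plagl1 3, Dlk1 2, and Phlda2, Peg10 and Mest 1 each. H19 had none of its own, because the probe set that reads it carries a second symbol as well. Probe sets of one gene share a target and are not independent.

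The tissue was mouse coelomic epithelium over the gonadal primordium, the layer from which the gonad forms, at stage E10.5 of gestation. It was cut by laser microdissection from unfixed frozen sections of fetuses that lacked Emx2 (Emx2 KO, labelled -/-) and of wild-type fetuses (WT, labelled +/+). Emx2 encodes a homeobox transcription factor that the urogenital system needs. Each of the 3 KO and 3 WT pools held material of 3 fetuses, and each pool was hybridised to 1 array. The labels give no strain, no sex, no description of the deleted part of Emx2 and no litters, so the p-values measure the spread between these pools only.

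In genomic imprinting, DNA methylation set in the egg or the sperm marks a control region, and the genes around it are then read from one parental copy. Many imprinted genes set the pace of fetal and placental growth, with paternally expressed genes often promoting it and maternally expressed ones often restraining it. Plagl1, also called Zac1, is an imprinted zinc finger transcription factor known in mice to act on other imprinted genes, among them Igf2, H19, Dlk1 and Mest. The arrays measured the total RNA of each gene and cannot tell the parental copies apart.

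Several features of the whole set of arrays bear on the comparison. The only probe set of Emx2 averaged 1634 ± 138 in KO and 1716 ± 409 in WT pools (SD, n = 3 each), so it does not check the genotype labels. Xist, the RNA of the inactive X chromosome of female cells, read 9321 to 9888 in KO pools and 13.3 to 69.9 in WT pools, while the Y-linked Eif2s3y averaged 160 ± 63.1 in KO and 776 ± 58.5 in WT pools. Genotype and the sex of the fetuses therefore cannot be told apart. Of 11 tested markers of the coelomic epithelium 5 were higher, Gpm6a and Upk1b most, and 1 lower in KO pools, beside 5.41% of all genes called. The lower one was Krt8, at 1452 ± 104 in KO and 2184 ± 222 in WT pools (SD, n = 3 each). Wt1 and Krt18 also had lower means in KO pools, 2002 and 1256 against 2620 and 1638, without passing the test. The summed level of all 12 listed was 22285 to 24411 in KO against 21872 to 22794 in WT pools. Log2 intensities correlated with r between 0.977 and 0.983 within a group and between 0.964 and 0.972 across groups. These values are across probe sets, which are not replicates.

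Plagl1 fell and Mest rose in KO pools, and no other member passed the test. Of the 36 probe sets, 30 were bright enough to be tested. A probe set was called at an adjusted p below 0.05 in limma, a linear model fitted across all 27022 tested probe sets, two-sided with Benjamini-Hochberg adjustment. By this rule 2 of 30 member probe sets were called, or 6.67%, against 4.68% of all those tested. Without KO replicate 1 or WT replicate 1 the count was 1, and without WT replicate 3 it was 4. The 1 called higher stands beside a background of 2.75% called higher, and the 1 called lower beside 1.93% called lower. The values of the KO and WT pools did not overlap for 10 of the 30, 2 higher and 8 lower in KO, which is 33.3% against 22% of all tested probe sets. At an unadjusted p below 0.05 there were 11 of 30, or 36.7%, against 17.3% of all tested probe sets. The sign of the log2 fold change, always KO minus WT, was positive in 9 and negative in 21. Their median log2 fold change was −0.12, beside 0.01 for all tested probe sets, and their median size regardless of sign was 0.16, beside 0.18.

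**Figure D1:**
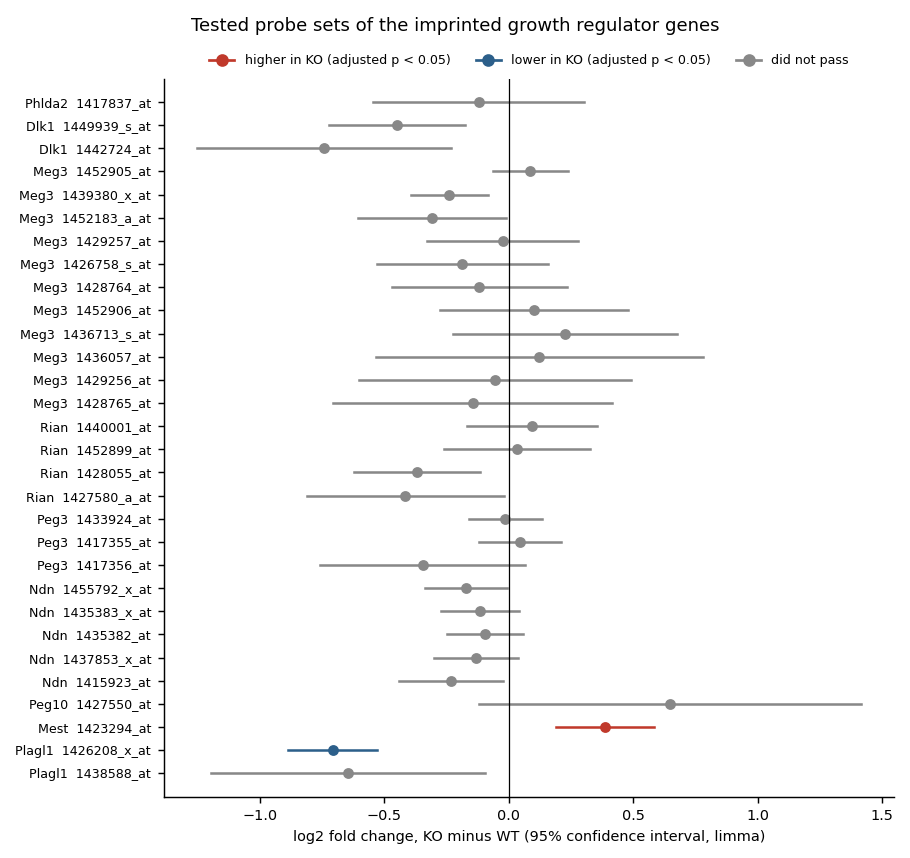
Log2 fold change (KO minus WT) of the 30 tested member probe sets, with points at the limma estimate and lines for the 95% confidence interval, n = 3 pools per group. The Mest probe set is called higher and 1 Plagl1 probe set lower. The other 28 did not pass, and most of their points lie left of 0.

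Plagl1 restrains cell proliferation in culture, besides its role in transcription. Its brightest probe set, 1426208_x_at, read 3246, 3543 and 3233 in KO pools against 5897, 5215 and 5271 in WT pools. All KO pools lay below all WT pools by a margin wider than the spread within either group. The means were 3341 ± 175 in KO and 5461 ± 379 in WT pools (SD, n = 3 each), so that KO stood at 61.2% of the WT level on the log scale (log2 fold change −0.71, SE 0.08, limma adjusted p = 0.000337, 95% interval −0.89 to −0.53). In bulk tissue, fewer cells that express a gene and less RNA per cell cannot be told apart. The suffix _x_at marks a probe set whose oligonucleotides may also bind other transcripts.

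A second Plagl1 probe set, 1438588_at, without that suffix, had values of 186, 251 and 108 in KO against 257, 248 and 302 in WT pools. Its groups overlapped and it did not pass (log2 fold change −0.65, SE 0.25, limma adjusted p = 0.201). The value was −0.31 without KO replicate 3 and −0.92 without KO replicate 2. The third, 1450533_a_at, lay at the intensity floor of 7.99 on 5 of 6 arrays and was not tested. The call at 1426208_x_at was kept with any one pool left out and in 13 of 15 alternative settings. It was lost without the filter on dim probe sets (limma adjusted p = 0.0523) and on the values as deposited without rescaling (log2 fold change −0.62, limma adjusted p = 0.0596).

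The Plagl1 promoter is shown because Plagl1 had the lowest adjusted p of the members and because imprinted control regions are bound through a known motif. Zfp57 keeps methylation at such regions by binding the letters TGCCGC when methylated. The sequence is chr10:13090582-13090881 on the plus strand of GRCm38.p6, from RefSeq, and runs from 250 bases before the gene start to 50 after it. Capitals mark the motif as it reads on this strand, GCGGCA.
Plagl1 promoter: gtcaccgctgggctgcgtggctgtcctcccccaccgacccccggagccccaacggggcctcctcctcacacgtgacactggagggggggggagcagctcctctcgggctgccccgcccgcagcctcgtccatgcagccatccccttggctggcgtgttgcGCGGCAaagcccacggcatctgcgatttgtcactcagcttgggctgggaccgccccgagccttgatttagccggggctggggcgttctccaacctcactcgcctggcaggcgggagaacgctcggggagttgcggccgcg
The motif begins 90 bases before the start. It occurs, on either strand, in 11.6% of the 32851 promoters of this length in the table. The promoter has 26 CpG, the dinucleotide that carries methylation, where the median promoter has 7 and the upper quartile is 20. A match of letters is a description of this window and not a bound site.

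Mest encodes a protein of the alpha/beta hydrolase family, is named for its expression in mesoderm, and is paternally expressed. Its only probe set, 1423294_at, read 6797, 5851 and 6510 in KO against 4545, 4669 and 5472 in WT pools. The highest WT pool, replicate 3, came close to the lowest KO pool, replicate 2, without overlap. The means were 6386 ± 485 in KO and 4895 ± 503 in WT pools (SD, n = 3 each), a 1.31-fold difference (log2 fold change 0.39, SE 0.09, limma adjusted p = 0.0282, 95% interval 0.19 to 0.58).

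This call was held less firmly than that of Plagl1, although the sign was positive in all settings run. It passed in 7 of 15 alternative settings and in 2 of 6 runs with a pool left out. Leaving out KO replicate 1 gave a limma adjusted p of 0.141, KO replicate 3 gave 0.115, WT replicate 1 gave 0.127 and WT replicate 2 gave 0.0869. Scaling to a common median gave 0.054, and no filter, no intensity trend and the values as deposited gave 0.238, 0.222 and 0.214. Among 15 tested markers of mesenchyme, 8 were higher and 1 lower in KO pools, where 5.41% of all genes, read by their brightest probe set, were called. The summed level of the 16 listed was 30971 to 32342 in KO against 24171 to 25745 in WT pools. Twist1 and Osr1, transcription factors of mesenchyme and intermediate mesoderm, had the largest rises. Tbx3 was called lower (log2 fold change −0.71, limma adjusted p = 0.0299). Foxf1 was lower without overlap and did not pass (log2 fold change −0.77, limma adjusted p = 0.161). The part of mesenchyme in the Mest result was not tested.

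RefSeq gives 3 start sites for Mest, and the promoter shown is that of the first of a pair that overlap, chr6:30737800-30738099 on the plus strand of GRCm38.p6. It is given to set beside that of Plagl1, the member called in the opposite direction. Capitals mark the same Zfp57 motif.
Mest promoter: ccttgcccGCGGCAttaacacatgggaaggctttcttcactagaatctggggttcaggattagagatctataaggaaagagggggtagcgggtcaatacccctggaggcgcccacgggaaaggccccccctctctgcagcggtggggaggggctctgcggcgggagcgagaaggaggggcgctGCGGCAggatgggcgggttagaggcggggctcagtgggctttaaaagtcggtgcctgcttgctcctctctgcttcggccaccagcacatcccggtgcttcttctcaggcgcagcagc
The motif begins 242 and 67 bases before the start, and the window has 17 CpG. A separate Mest start on the same strand, chr6:30733256-30733555, has 8 CpG and no copy of the motif. Of the 11 promoter entries of 8 members, 4 held the motif: 1 of Plagl1, the 2 overlapping entries of Mest and 1 of Meg3. H19 and Peg10 were not matched. No member entry held TAATTA, the core bound by many homeobox factors, searched on both strands, which occurs in 5.29% of all promoters.

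**Figure D2:**
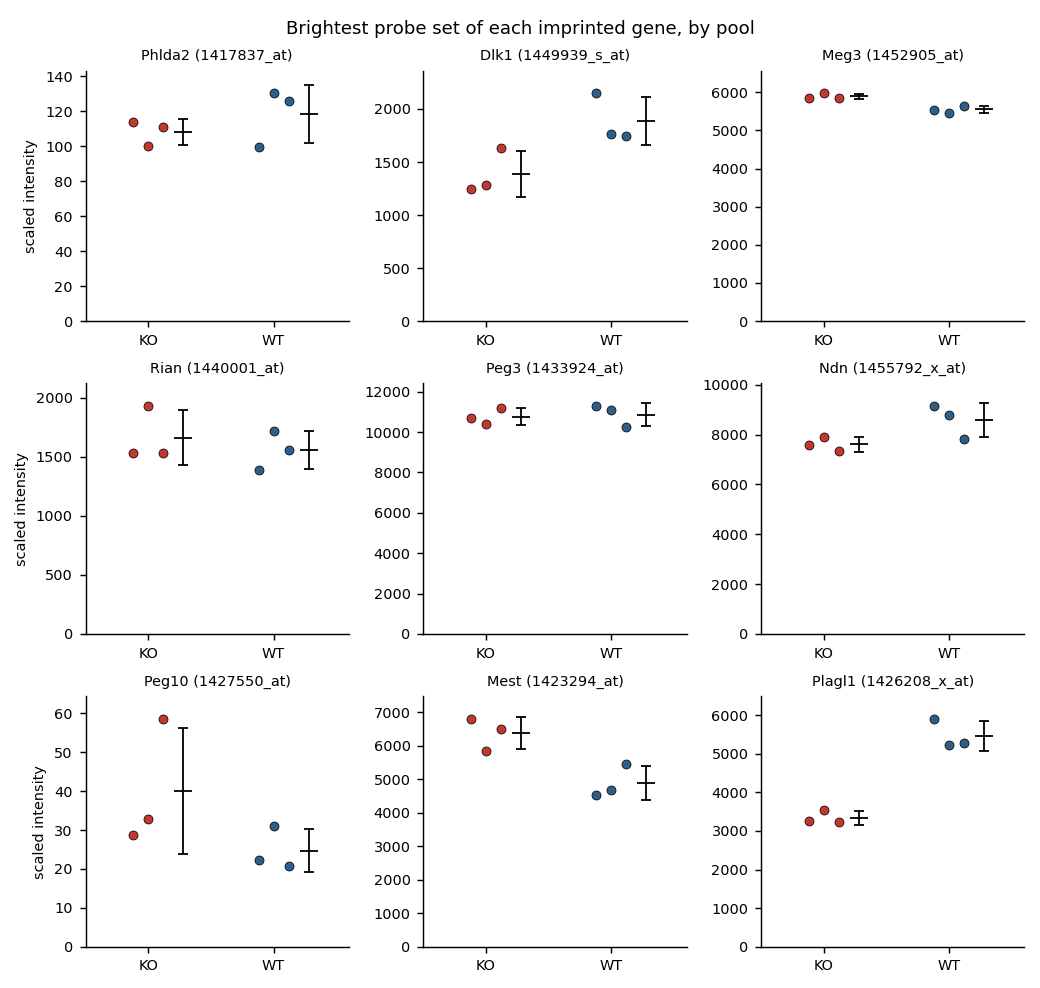
Scaled intensity, on linear axes that start at 0, of the brightest probe set of each of the 9 genes, with a point per pool, KO left of WT, and bars for the mean ± SD (n = 3). Plagl1 and Dlk1 lie lower, and Mest and by a narrow margin Meg3 higher, in all KO pools than in any WT pool, while Peg3, Phlda2, Rian, Ndn and Peg10 overlap. Heights are not comparable between panels, since each probe set has its own response.

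At the Dlk1-Meg3 locus on mouse chromosome 12, Dlk1 is read from the paternal copy and the noncoding RNAs Meg3 and Rian from the maternal one. None of their 17 probe sets was called in limma, and 6 had an unadjusted p below 0.05, all lower in KO pools, where 17.3% of all tested probe sets pass that mark. Dlk1 encodes a transmembrane protein related to the Notch ligands that holds back differentiation, of fat cells for example. Its brighter probe set, 1449939_s_at, read 1241, 1286 and 1635 in KO against 2147, 1768 and 1750 in WT pools. The groups did not overlap, but the gap between KO replicate 3 and WT replicate 3 was small beside the spread within the groups. The means were 1388 ± 216 in KO and 1888 ± 225 in WT pools (SD, n = 3 each; log2 fold change −0.45, SE 0.13, limma adjusted p = 0.0651). Without KO replicate 3 it passed, at a limma adjusted p of 0.0324, and with the dimmest 60% of probe sets left out it had 0.0495.

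The other Dlk1 probe set, 1442724_at, was dimmer and gave the same sign. It read 72.2, 65.5 and 59.0 in KO against 107, 142 and 86.2 in WT pools, again without overlap. It did not pass (log2 fold change −0.74, SE 0.24, limma adjusted p = 0.106), except without WT replicate 3, with 0.0442. Both Dlk1 probe sets were negative in all settings in which they were tested.

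Meg3, a long noncoding RNA, was read by 11 probe sets, with 4 positive and 7 negative log2 fold changes between −0.31 and 0.23. The brightest, 1452905_at, had 5860, 5971 and 5849 in KO against 5541, 5457 and 5648 in WT pools. The next, 1439380_x_at, had 5092, 4886 and 4854 in KO against 5986, 5748 and 5762 in WT pools. Both pairs of groups did not overlap, yet they lay in opposite directions: 1452905_at was 0.09 on the log2 scale (SE 0.07, limma adjusted p = 0.587) and 1439380_x_at was −0.24 (SE 0.07, limma adjusted p = 0.0851). The most negative probe set, 1452183_a_at, averaged 1359 ± 168 in KO and 1690 ± 291 in WT pools and overlapped (SD, n = 3 each; log2 fold change −0.31, SE 0.14, limma adjusted p = 0.269). The other 8 had values that overlapped between groups. Which Meg3 transcripts each probe set reads is not given in the files used here.

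Rian, the noncoding RNA next to Meg3 that carries small nucleolar RNAs and microRNAs in its introns, also divided by probe set. Probe sets 1440001_at and 1452899_at had log2 fold changes of 0.09 and 0.03. Probe sets 1428055_at and 1427580_a_at had −0.37 and −0.42. Of these, 1428055_at read 1040, 1189 and 1170 in KO against 1636, 1268 and 1502 in WT pools. Its groups did not overlap, and it did not pass with all pools (SE 0.12, limma adjusted p = 0.108) but had 0.0458 without WT replicate 2. Mirg, the noncoding RNA that follows Rian in the locus, averaged 242 ± 48.4 in KO and 296 ± 55.3 in WT pools at its brighter probe set (SD, n = 3 each; log2 fold change −0.29, limma adjusted p = 0.475). Rtl1, the other paternally expressed gene named for this locus, had no probe set of a single symbol.

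Peg3 encodes a large zinc finger protein, paternally expressed, that affects growth and nursing behaviour in mice. Its 2 brightest probe sets were at nearly equal levels in both groups. Probe set 1433924_at averaged 10765 ± 411 in KO and 10871 ± 553 in WT pools, with a log2 fold change of −0.01 and a 95% interval of −0.16 to 0.13. Probe set 1417355_at averaged 8857 ± 314 in KO and 8600 ± 721 in WT pools (SD, n = 3 each; log2 fold change 0.05, 95% interval −0.12 to 0.21). These intervals exclude a change at either probe set as large as that of Plagl1. The dimmer 1417356_at read 113, 169 and 146 in KO against 174, 175 and 188 in WT pools, without overlap and without passing (log2 fold change −0.35, SE 0.19, limma adjusted p = 0.387). Its 95% interval, −0.76 to 0.06, does hold a change as large as that of Plagl1. The remaining 2 lay at the floor on all 6 arrays.

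The Peg3 promoter is shown because it held the one match among the members to the palindrome GGGGCCCC, a motif bound by Plagl1. It is chr7:6730370-6730669 on the minus strand of GRCm38.p6, from RefSeq, with the palindrome in capitals.
Peg3 promoter: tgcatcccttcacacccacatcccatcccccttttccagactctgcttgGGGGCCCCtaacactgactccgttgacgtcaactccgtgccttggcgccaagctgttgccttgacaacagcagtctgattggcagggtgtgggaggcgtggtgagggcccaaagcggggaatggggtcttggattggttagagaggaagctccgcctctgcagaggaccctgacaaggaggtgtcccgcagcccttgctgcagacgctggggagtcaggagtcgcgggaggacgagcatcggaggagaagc
The palindrome begins 201 bases before the start and occurs in 1.08% of all promoters of this length. In the values above, the brightest Plagl1 probe set fell and no Peg3 probe set passed, while Peg3 1417356_at was lower in all KO pools. A link between Plagl1 and Peg3 was not tested. No match in the other entries says only that these letters are not in those windows.

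Ndn encodes necdin, a paternally expressed protein that restrains proliferation in neurons and lies in the mouse counterpart of the Prader-Willi region. All 5 tested probe sets had small negative log2 fold changes, from −0.10 to −0.23, and none was called in limma (2 had an unadjusted p below 0.05, beside 17.3% of all tested probe sets). The brightest, 1455792_x_at, averaged 7603 ± 289 in KO and 8588 ± 672 in WT pools (SD, n = 3 each; log2 fold change −0.17, SE 0.08, limma adjusted p = 0.262). WT replicate 3 lay within the KO range there, and without it the limma adjusted p was 0.0409. Probe set 1415923_at read 1952, 1684 and 1692 in KO against 2163, 2065 and 2018 in WT pools, without overlap (log2 fold change −0.23, SE 0.10, limma adjusted p = 0.228). At 1435382_at the groups also did not overlap, but only just, with the highest KO pool at 6997 and the lowest WT pool at 7004. Its means were 6677 ± 321 in KO and 7128 ± 119 in WT pools (SD, n = 3 each; log2 fold change −0.10, limma adjusted p = 0.547). The 3 other Ndn probe sets were near the floor and not tested. Its neighbour Magel2 averaged 65.4 ± 18.3 in KO and 83.7 ± 26.6 in WT pools and did not pass (log2 fold change −0.35, limma adjusted p = 0.597), and Snrpn was too dim to test.

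Peg10, a paternally expressed gene derived from a retrotransposon that the mouse placenta needs, read 28.8, 32.7 and 58.5 in KO against 22.3, 31.0 and 20.7 in WT pools at 1427550_at. KO replicate 3 stood above the rest, and the groups overlapped. The WT mean of 24.7 lay under the limit of 26.4 below which a level is called dim here, and the difference did not pass (log2 fold change 0.65, SE 0.35, limma adjusted p = 0.388). The log2 fold change was 0.34 without KO replicate 3, and 0.39 with the floor raised to the 40th percentile. Sgce, which shares its promoter region with Peg10, averaged 691 ± 32.4 in KO and 658 ± 105 in WT pools (SD, n = 3 each; log2 fold change 0.08, limma adjusted p = 0.82).

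Phlda2, a maternally expressed gene that restrains placental growth, read 114, 99.9 and 111 in KO against 99.4, 130 and 126 in WT pools. The groups overlapped (log2 fold change −0.12, SE 0.20, limma adjusted p = 0.818). Cdkn1c, a cyclin-dependent kinase inhibitor of the same cluster, averaged 6024 ± 536 in KO and 5823 ± 1072 in WT pools (SD, n = 3 each; log2 fold change 0.06, 95% interval −0.20 to 0.32).

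H19 is a maternally expressed noncoding RNA that shares enhancers with Igf2, and its first exon holds the microRNA gene Mir675. The array's 1448194_a_at is annotated with both symbols, so it is given outside the counts and ascribed to neither. The 2 mature arms in RefSeq (GRCm38.p6, minus strand, chr7:142577112-142577133 and chr7:142577078-142577099) are shown as the second product that this annotation names. Capitals mark the seed, bases 2 to 8.
mmu-miR-675-5p: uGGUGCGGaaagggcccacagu
mmu-miR-675-3p: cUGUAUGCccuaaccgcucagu
The arms have different seeds. Probe set 1448194_a_at read 10206, 10064 and 10831 in KO against 11609, 11656 and 10208 in WT pools. WT replicate 3 lay among the KO pools, and the difference did not pass (log2 fold change −0.10, SE 0.07, limma adjusted p = 0.519, 95% interval −0.26 to 0.05). Igf2, the growth factor expressed from the opposite copy of that locus, averaged 6287 ± 160 in KO and 6143 ± 419 in WT pools at its brightest probe set (SD, n = 3 each; log2 fold change 0.04, 95% interval −0.13 to 0.20).

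Divided by the parental copy that each gene is known to use, the 16 tested probe sets of the maternally expressed Phlda2, Meg3 and Rian included no call in limma (4 had an unadjusted p below 0.05), with 6 positive and 10 negative log2 fold changes. The 14 of the paternally expressed Dlk1, Peg3, Ndn, Peg10, Mest and Plagl1 included both calls (7 at an unadjusted p below 0.05), with 3 positive and 11 negative. Of all tested probe sets, 4.68% were called and 17.3% had an unadjusted p below 0.05. Meg3 gave 11 of the 16 and Ndn 5 of the 14, and probe sets of one gene are not independent. The median log2 fold change was −0.15 for the paternally and −0.09 for the maternally expressed genes. The difference between these 2 classes was not tested.

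**Figure D3:**
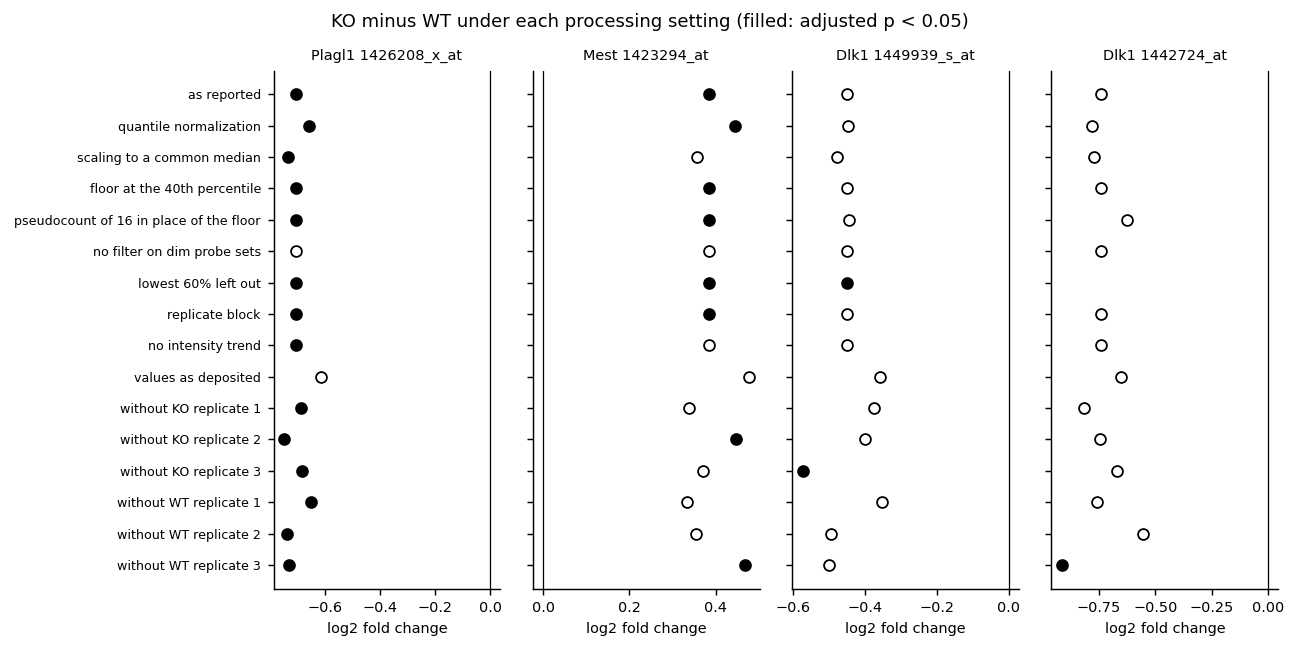
Log2 fold change (KO minus WT) of the 2 called probe sets and the 2 Dlk1 probe sets as reported and under the 15 alternative settings, each panel with its own axis, filled where the adjusted p was below 0.05. Plagl1 is filled in all but 2 alternatives and Mest in 7 of 15, and none of the 4 changes sign. The second Dlk1 probe set has no point where the dimmest 60% were left out.

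Other imprinted genes, each read by its brightest probe set, had 4 calls, all higher in KO pools. This was 4 of 47 tested, or 8.51%, against 5.41% of the 12315 genes read the same way. The 47 had a median log2 fold change of 0.09, beside −0.01 for all genes. The count was 1 without KO replicate 1, and 2 without KO replicate 3 or WT replicate 1. A call in the lower direction, 1 in each case, appeared with the floor at the 40th percentile, with the dimmest 60% left out and without WT replicate 2. At an unadjusted p below 0.05, 10 were higher and 3 lower, and 18.2% of all genes were under that mark. Among the partners of the members in their own clusters, 23 of 34 listed were tested, 2 were higher and 0 lower (median 0.14). Among imprinted genes of other loci, 24 of 33 listed were tested, 2 were higher and 0 lower (median 0.08).

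Both called partners lie near Peg10 on mouse chromosome 6. Asb4, which encodes an ankyrin repeat protein of a ubiquitin ligase, read 6515, 5695 and 5912 in KO against 4380, 4362 and 4831 in WT pools. Its means were 6041 ± 425 in KO and 4525 ± 266 in WT pools (SD, n = 3 each; log2 fold change 0.42, SE 0.08, limma adjusted p = 0.0102), and its other probe set had 0.36 without passing (limma adjusted p = 0.0764). Pon2, a paraoxonase, averaged 458 ± 39.1 in KO and 279 ± 72.6 in WT pools (SD, n = 3 each; log2 fold change 0.74, SE 0.18, limma adjusted p = 0.0335) at 1429019_s_at. Its other tested probe set, 1450686_at, overlapped and did not pass (log2 fold change 0.40, limma adjusted p = 0.299). Sgce and Peg10, nearer to the control region of that cluster, did not pass, as given above.

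Of the other loci, Dcn encodes decorin, a proteoglycan of connective tissue. It read 379, 379 and 389 in KO against 241, 213 and 208 in WT pools, 2 groups far apart beside their spread (log2 fold change 0.80, SE 0.14, limma adjusted p = 0.00545). Dcn is also one of the mesenchyme markers counted above. Slc38a4, an amino acid transporter, averaged 2051 ± 289 in KO and 1398 ± 205 in WT pools (SD, n = 3 each; log2 fold change 0.55, SE 0.13, limma adjusted p = 0.0263). Its second probe set had 0.58, at a limma adjusted p of 0.0537. Airn, the noncoding RNA that silences Igf2r on the paternal copy, was not called at its brightest probe set (log2 fold change 0.33, limma adjusted p = 0.28). It was called at a dimmer one, 1456139_at, with 446 ± 27.9 in KO and 272 ± 49.2 in WT pools (SD, n = 3 each; log2 fold change 0.73, limma adjusted p = 0.0197). Usp29 and Copg2, the nearest partners of Peg3 and Mest, had log2 fold changes of 0.89 and −0.08 at their brightest probe sets and did not pass (limma adjusted p = 0.448 and 0.809). For Usp29, 1 of the 3 WT values there was at the floor, and its other probe set, 1419237_at, had 0.15 (limma adjusted p = 0.892).

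**Figure D4:**
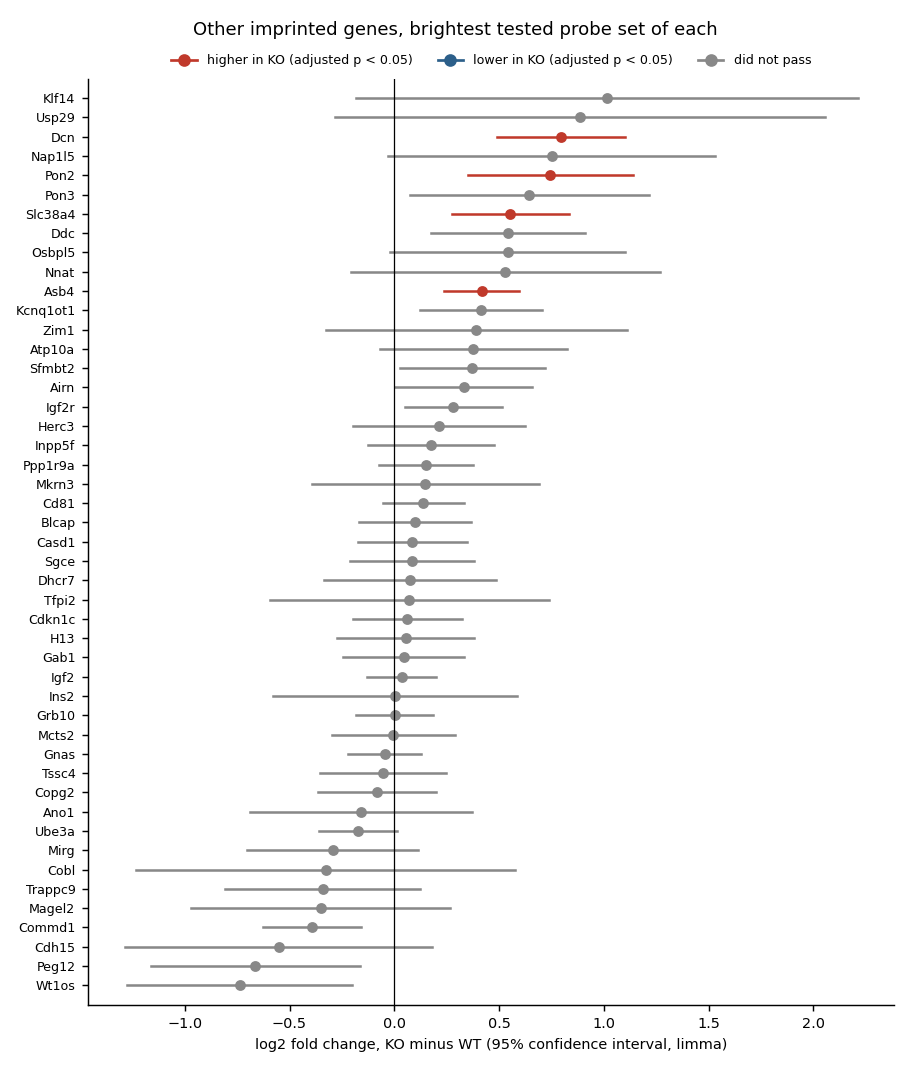
Log2 fold change (KO minus WT) of the brightest tested probe set of 47 other imprinted genes, with points at the limma estimate and lines for the 95% confidence interval, n = 3 pools per group. Dcn, Pon2, Slc38a4 and Asb4 are called higher, and 0 genes are called lower.

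Of the 21 listed genes that keep or remove imprints, 18 were tested. Of all genes read by their brightest probe set, 5.41% were called and 18.2% had an unadjusted p below 0.05. Of the 18, 0 were higher and 1 was lower (median log2 fold change 0.02; 2 higher and 1 lower at an unadjusted p below 0.05). This was Dppa3, a protein of germ cells and the egg that shields maternal methylation, at 146 ± 28.9 in KO and 242 ± 26.3 in WT pools (SD, n = 3 each; log2 fold change −0.74, limma adjusted p = 0.0398). Of 7 tested germ cell markers, a list that also holds Dppa3, 2 were lower, Dnd1 and Dppa3. The summed level of the 8 listed germ cell markers was 1093 to 1317 in KO against 1344 to 1487 in WT pools. The part of germ cells in the Dppa3 result was not tested. Zfp57 itself was too dim to test. Among the Notch receptors, targets and relatives set beside Dlk1, 8 of 10 were tested, 0 were higher and 1 was lower. This was Hey1, a transcriptional repressor induced by Notch, at 505 ± 13.3 in KO and 900 ± 195 in WT pools (SD, n = 3 each; log2 fold change −0.81, SE 0.16, limma adjusted p = 0.00913). At an unadjusted p below 0.05, 2 of these genes were higher, Notch1 and Notch3 (log2 fold changes 0.68 and 0.30), and 2 lower, Hey1 and Rbpj. Of all genes, 18.2% were under that mark.

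The pattern over the 6 pools was also compared between genes, by the root mean square difference of log2 values centred on their mean. The 3 genes closest to Plagl1 1426208_x_at were Dusp9, Lztfl1 and Olfm1, at 0.04, 0.06 and 0.08. Dusp9 averaged 345 ± 11.6 in KO and 554 ± 49.5 in WT pools (SD, n = 3 each). For Peg10, whose brightest probe set had the largest positive log2 fold change of the members as reported, they were Zfp652, Ube2d2a and Pcdh11x, at 0.11, 0.13 and 0.14. Without KO replicate 3 the log2 fold change was 0.34 for Peg10 and 0.37 for Mest. None of the 3 genes passed the test.

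Markers of other cell types that the cut tissue could hold are given for the members as a whole. Beside the counts that follow, 5.41% of all genes were called and 18.2% had an unadjusted p below 0.05 in limma, by their brightest probe set. Endothelial markers had 4 of 10 tested higher and 0 lower, Emcn and Tek most. Their summed level over 12 genes was 1660 to 1940 in KO against 1032 to 1311 in WT pools. Primitive erythroid markers had 0 of 8 called in limma (1 at an unadjusted p below 0.05), and their summed level was 37176 to 38797 in KO against 36225 to 38589 in WT pools. That sum is mostly Hbb-bh1, Hbb-y and Hba-x, each at 7221 or more on every array. In Slc4a1, Ermap, Alas2, Klf1 and Gata1, WT replicate 3 stood above the other WT pools. For Slc4a1 it read 2286 against 573 and 511, with 1213 to 1449 in KO pools. Liver bud markers had 0 of 5 called (also 1 at an unadjusted p below 0.05), and WT replicate 2 was far above the rest at 2109, through Afp. Muscle markers had 1 higher and 1 lower of 6, Tnnt2 and Myh6, with Myf5 at the floor on all arrays, and neural markers had 2 higher and 1 lower of 7, Nefm higher and Dct lower by the most. The summed neural level was 1375 in KO replicate 2, with Tubb3 at 161, against 736 to 936 on the other 5 arrays. Nephric duct markers had 2 lower of 5, Lhx1 and Pax8, and the 5 include Emx2 itself, which did not pass. The ratio of 3' to 5' signal, a sign of RNA length, was 3.64 to 4.16 in KO and 3.48 to 4.25 in WT pools for Gapdh, and 14.6 to 20.2 in KO and 14.9 to 19.4 in WT pools for beta-actin. For the transferrin receptor it was 1.70 to 2.88 in KO and 2.29 to 2.64 in WT pools, and for pyruvate carboxylase 3.38 to 9.89 in KO and 8.85 to 17.0 in WT pools. The part of these cell types in the Plagl1 and Mest differences was not tested.

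**Figure D5:**
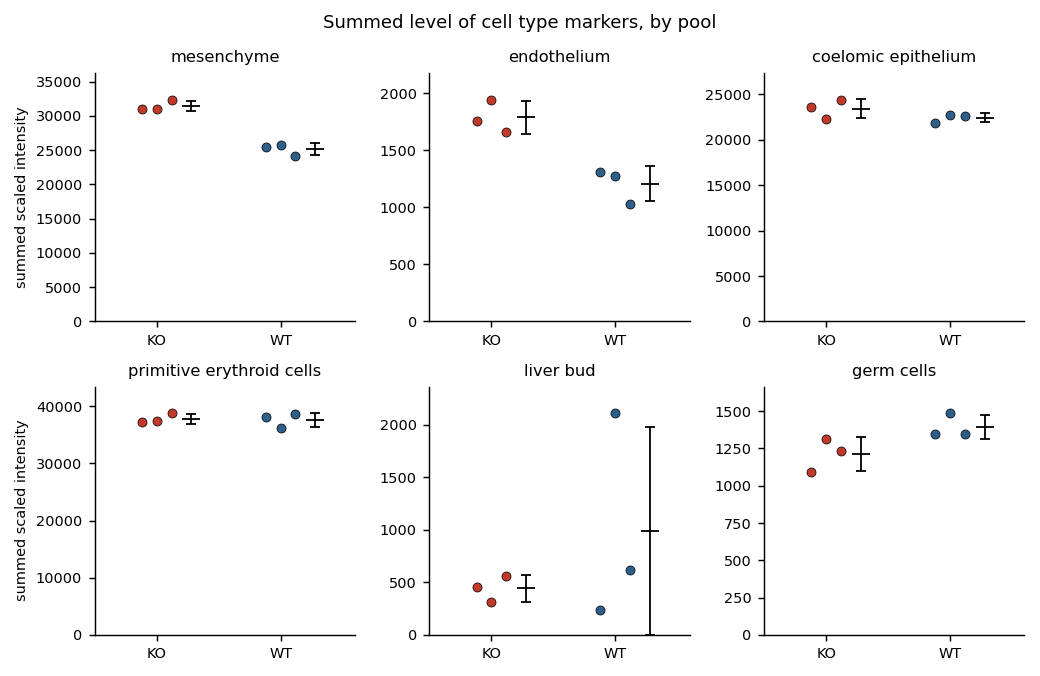
Summed scaled intensity of the listed markers of 6 cell types, with a point per pool, KO left of WT, and bars for the mean ± SD (n = 3), on linear axes that start at 0. Mesenchyme and endothelium sums lie higher, and germ cell sums lower, in all KO pools than in any WT pool. Coelomic epithelium and erythroid sums overlap, and 1 WT pool stands apart in the liver bud panel.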

How the data were processed

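The values used are the linear intensities that the authors deposited, 1 per probe set and array on 6 1-channel arrays. GCOS 1.2 is named per the submitters' processing notes; the sources used here do not give its algorithm or scaling target. The 2% trimmed means of the deposited intensities differed by a factor of up to 1.47, above a tolerance of 5%, so all arrays were brought to one 2% trimmed mean, 309.2. A floor at the 20th percentile (7.99) preceded the log2 step. The 64 controls and the 40% with the lowest mean log2 value (an intensity under 26.4) were left out, and 27022 were tested in R 4.3.3 with limma 3.58.1, by lmFit and a trended eBayes step. The number of arrays, 3 per group, limits the precision.

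Symbols came from the platform's annotation, in which 34958 probe sets had 1 symbol, 932 several and 9211 none. Those with several symbols or none were tested and not named, apart from 1448194_a_at. Promoter and microRNA sequences are RefSeq's, matched by symbol for 8 of the 10 genes and for Mir675, and motifs were searched on both strands.

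The members and lists were chosen with earlier results of these data known. The genes named were all member probe sets, called genes of the imprinted lists, 9 fixed partners of the members, up to 2 called members of each other list by size, and the 3 genes closest in pattern to the brightest probe sets with the largest rise and fall. Airn, Afp, Zfp57, Krt8, Krt18, Wt1, Tbx3, Foxf1, the named erythroid genes and the genes' other probe sets were added after their values were seen. The procedure was tested on simulated data. The alternatives were other normalizations, floors and filters, a pseudocount, no intensity trend, a replicate block and the omission of single pools. Values as deposited, and counts without _x_at and _s_at probe sets, were chosen after seeing the data.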

Additional observations from a re-analysis of the deposited data

How the results depend on the processing

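Of the 30 member probe sets, 22 kept the sign of their log2 fold change under each setting in which they were tested, 15 for 25 probe sets and 14 for 5, and of 445 values 410 kept both sign and side of the threshold. The number of called probe sets was 1264 as reported, 151 with no filter on dim probe sets, 541 with no intensity trend, and 721 to 1687 with a pool left out (721 without WT replicate 1, 790 without KO replicate 3, 815 without KO replicate 1 and 834 without KO replicate 2). The replicate block gave 1160 called probe sets, 2 of the members and 3 of the other imprinted genes, and changed no call of Plagl1 or Mest. Deviations of same-numbered pools from their group means correlated at −0.07, 0.04 and −0.05, and KO replicate 1 correlated best with WT replicate 3, so the numbers were taken not to pair the pools. Called member probe sets numbered 2 as reported, 1 after scaling to a common median, 0 with no filter, 1 with no intensity trend, 0 on the values as deposited, 1 of 22 with suffixes _x_at and _s_at left out, and 1 to 4 with a pool left out. Beside the counts of 0 in limma, 11 of 30 had an unadjusted p below 0.05 as reported, or 36.7%, against 17.3% of all tested probe sets. Called other imprinted genes numbered 4 as reported, 1 with no filter, with no intensity trend and on the values as deposited, and 1 to 5 with a pool left out, while the 40th-percentile floor and the lowest 60% left out gave 5 each, 4 higher and 1 lower. With a pool left out, the members' count was highest, 4, without WT replicate 3, and lowest, 1, without KO replicate 1 or WT replicate 1. Peg3 1433924_at was −0.01 as reported, 0.069 after quantile normalization, 0.079 as deposited and −0.056 to 0.014 with a pool left out, and Peg3 1417355_at was −0.0030 to 0.11. Of the Meg3 probe sets, 1429257_at was 0.068 as deposited and −0.11 to 0.10 with a pool left out, 1429256_at was 0.039 and −0.19 to 0.067, 1436057_at was −0.17 to 0.37 and 1452906_at was −0.066 to 0.25. Rian 1440001_at was −0.018 to 0.17 and 1452899_at was −0.045 to 0.18. With no filter more probe sets enter the adjustment, and with a pool left out fewer samples enter the fit. The cause of the other changes was not tested. The values as deposited shift the median log2 fold change of all probe sets to 0.10, beside 0.01 as reported. Near the floor, levels have no order.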

Other observations

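Of the 47 other imprinted genes tested, 9 had pools that did not overlap without passing limma's test, 5 higher and 4 lower in KO pools. Among all tested probe sets, called ones included, 22% had pools that did not overlap. The 4 described here were chosen after their values were seen, and Ddc, Pon3, Sfmbt2 and Herc3 were the others on the higher side and Ube3a on the lower. Kcnq1ot1, the noncoding RNA of the cluster that holds Phlda2 and Cdkn1c, averaged 968 ± 81.9 in KO and 732 ± 121 in WT pools (SD, n = 3 each; log2 fold change 0.41, limma adjusted p = 0.115). Peg12, of the cluster that holds Ndn, averaged 86.8 ± 22.2 in KO and 135 ± 15.1 in WT pools (log2 fold change −0.66, limma adjusted p = 0.141). Commd1, a copper transport protein, averaged 1348 ± 115 in KO and 1770 ± 154 in WT pools (log2 fold change −0.39, limma adjusted p = 0.0581). Wt1os, the transcript opposite Wt1, read 171, 121 and 151 in KO against 181, 374 and 214 in WT pools, with WT replicate 2 well above the rest (log2 fold change −0.74, limma adjusted p = 0.128).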
